A study of Danio rerio with 40 samples.

Results

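Retinoic acid is made from retinol in 2 oxidation steps. This account is about a gene for each step, ALDH1A2 (ENSDARG00000053493, called aldh1a2 here) and RDH10 (ENSDARG00000012369, called rdh10 here), which are 2 of the 33737 genes in the deposited table. They were chosen by gene identifier, and their levels were read in each of 40 single cells. The cells came from dissociated ventricles of adult zebrafish of the EK strain, 6 months old, that carried tcf21:nucEGFP, a nuclear green reporter of tcf21, a transcription factor gene used as an epicardial marker. Cells with green fluorescence that excluded propidium iodide, a dye that enters dead cells, were captured one by one on the Fluidigm C1, a microfluidic device, and their RNA was sequenced. All 40 cells form 1 group, with no second condition and no named animal, so they count as 1 sample, no test was run, and spreads are spreads between cells of that sample.

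Retinol dehydrogenases such as RDH10 turn retinol into retinaldehyde, and retinaldehyde dehydrogenases such as ALDH1A2 turn retinaldehyde into retinoic acid. Retinoic acid then binds nuclear receptors (RAR, paired with RXR) and is broken down by CYP26 enzymes, while DHRS3 reduces retinaldehyde back to retinol. In zebrafish hearts aldh1a2 is known as a gene of the epicardium, the outer cell layer, and, after injury, also of the endocardium, the inner lining. A cell needs retinaldehyde to make retinoic acid, but retinaldehyde and retinol can also come from neighbouring cells.

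The 40 libraries differed widely in what they held. Total expected reads, that is, estimated read numbers that need not be whole, ranged from 340293 to 5695770 per cell. The number of genes detected, at 5 or more expected reads, ranged from 161 to 10792, and the 25 cells with at least 2000 are called kept cells. Cell 40 stood apart with 10792 genes, against 4119 in the next, cell 15. It also had at least 50% of the symbols detected for 8 of 11 cell type marker lists, where no other cell had more than 3. Counts, shares and means that change most without it are therefore also given without it. Kept cell 11 carried macrophage markers. Cells 7 and 33, which were not kept, carried cardiomyocyte markers, at 25.8 and 20.5% of their reads. Kept cell 18 carried them at 1.55% of its reads, and at least 50% of the epicardial symbols were also detected in it.

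Reads in small numbers followed the cell numbers. For 83 genes with at least 5000 reads in 1 cell and at most 50 in every other, a read was present in 68.2% of pairs of such a gene and a cell whose number differed from the high cell's by a multiple of 5 (396 of 581 pairs). In all other cells a read was present in 7.57% of pairs (201 of 2656). At the step of 5 such reads had a median of 0.0290% of the reads in the high cell, and at most 0.342%. The same split by other steps from 2 to 11 gave at most 16.8%, except at 10, a multiple of 5, where it gave 68.3%. At those other steps the reads reached up to 0.825% of those in the high cell. The labels give no position or index for a cell, and the source of these reads was not tested. Levels of at least 50 CPM (a gene's reads per 1000000 reads of its cell) are therefore used below beside the detection level of 5 reads.

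**Figure D1:**
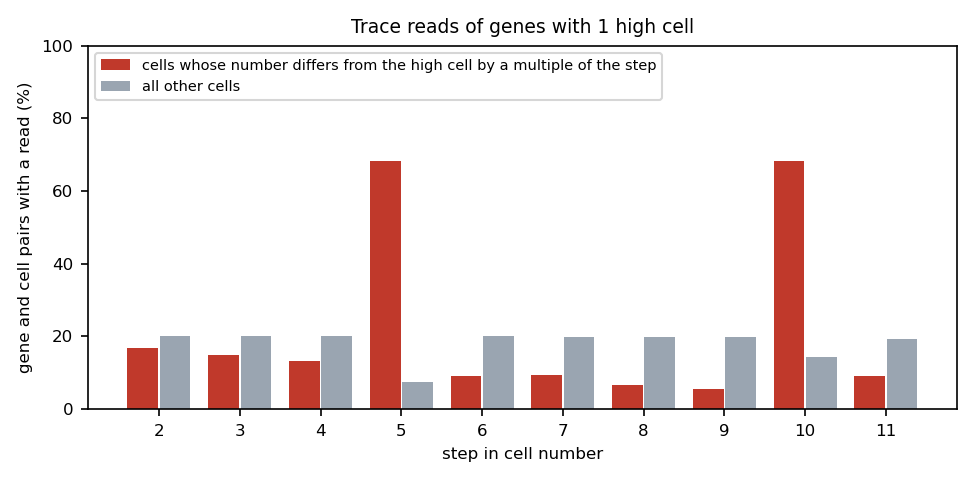
Percent of gene and cell pairs with at least 1 expected read, for 83 genes with 1 high cell, by the step in cell number (x axis, 2 to 11). Red bars are cells whose number differs from the high cell's by a multiple of the step and grey bars are all other cells; the red bars reach 68.2% at a step of 5 and 68.3% at 10 and stay at or below 16.8% at the other steps.

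aldh1a2, the second step, was either high or nearly absent. It reached 3939.6 CPM in cell 15, 2583 CPM in cell 25 and 433.3 CPM in cell 40. In every other cell it lay at or below 14.7 CPM, and 31 of 40 cells had no read of it. These 3 cells were the only ones at 50 CPM or more (7.5%, Wilson 95% interval 2.58 to 19.9% for the counting of cells). Over the kept cells it averaged 278.5 ± 922.9 CPM (SD, 25 cells) with a median of 0, and without cell 40 272.1 ± 942.2 CPM (SD, 24 cells).

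The low values of aldh1a2 fell in a pattern of cell numbers. At 5 or more reads it was detected in 8 of 40 cells (interval 10.5 to 34.8%), but 5 of these had only 5 to 10 reads. Cells 5, 10, 20 and 35 had 6, 8, 7 and 10 reads, and cell 30 had 4, below the detection level. These 5 and the 3 high cells are all 8 cells whose number is a multiple of 5. Cell 34, with 5 reads in a library of 340293, was the 1 other cell with any read. The low counts equalled 0.0232 to 0.0580% of the reads in cell 15, below the 0.342% reached at a step of 5 among the 83 genes with 1 high cell. With at least 20 reads required, the cells with aldh1a2 were 15, 25 and 40, so the other 5 detections rest on 10 reads or fewer.

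rdh10, the first step, was found in more cells, with a high group set apart from the others. It reached 50 CPM in 11 of 40 cells (27.5%, 16.1 to 42.8), of which 10 were kept cells. Cells 14, 31, 2, 22 and 26 were highest, at 1586, 1572, 1561, 1476 and 1099 CPM. Cell 18 followed at 780.9 CPM, and cells 12, 40, 9, 28 and 10 lay at 429.7, 423.1, 402.4, 387.0 and 322.4 CPM. The lowest of these 11 lay above every other cell, of which the highest had 31.4 CPM.

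Between the high cells and the rest stood cells 19, 15, 8 and 4, at 31.4, 29.02, 26.01 and 18.2 CPM, with 104, 127, 67 and 25 reads. Their reads were 0.518 to 5.27% of those of the highest other cell at a number step of 5. That is above the 0.342% seen at most at this step for the genes with 1 high cell. At other steps those genes reached 0.825%, more than the 0.518% of cell 4, and they were limited to 50 reads by choice. The other 25 cells had at most 4 reads, and 7 of them had none. At 5 or more reads rdh10 was thus detected in 15 of 40 cells (37.5%, 24.2 to 53.0), and it was the same 15 at 20 reads. With any read above 0 the number was 33, of which 18 had 1 to 4 reads. Unlike aldh1a2, rdh10 at 50 CPM occurred at all 5 remainders of the cell number divided by 5, in 2 or 3 of 8 cells each. Over the kept cells it averaged 341.8 ± 531.0 CPM (SD, 25 cells) with a median of 26.01 CPM, and without cell 40 338.4 ± 542.1 CPM (SD, 24 cells) with a median of 13.7 CPM.

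**Figure D2:**
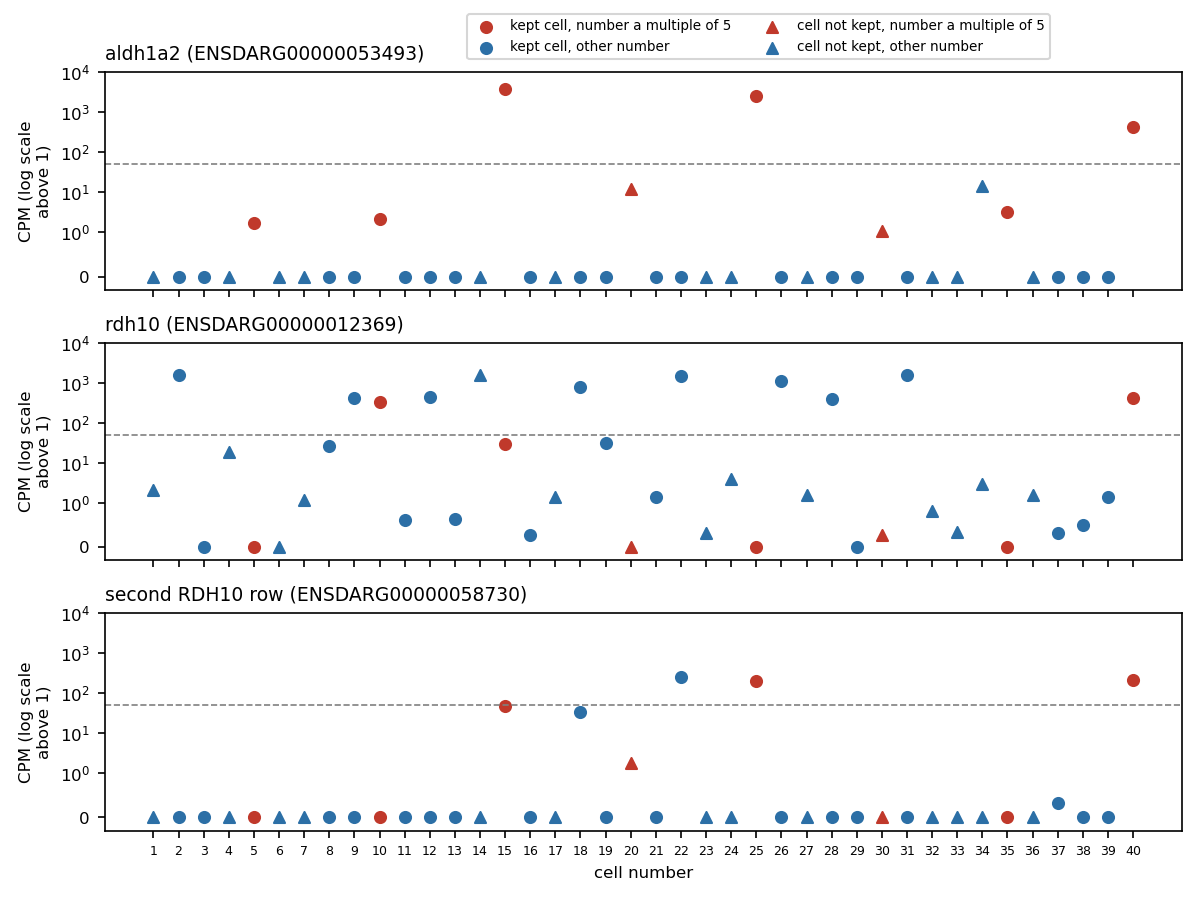
CPM of aldh1a2 (top), rdh10 (middle) and the second RDH10 row (bottom) in each of 40 cells, on an axis that is linear from 0 to 1 and logarithmic above, with the dashed line at 50 CPM. Circles are kept cells, triangles are cells not kept, and red marks cells whose number is a multiple of 5; aldh1a2 stands above the line in cells 15, 25 and 40, and rdh10 in 11 cells.

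aldh1a2 and rdh10 were both high in cell 40 alone. At 50 CPM, 1 of 40 cells held both genes (2.5%, 0.443 to 12.9), 2 held aldh1a2 without rdh10, 10 held rdh10 without aldh1a2 and 27 held neither. Among kept cells without cell 40 the number with both was 0 of 24, which allows a share of up to 12.5%. At 5 reads both were detected in cells 10, 15 and 40. In cell 10 aldh1a2 had 8 reads beside 1184 reads of rdh10, and in cell 15 rdh10 had 127 reads beside 17240 reads of aldh1a2. Cell 25 had 9258 reads of aldh1a2 and 0 of rdh10.

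Across the 25 kept cells the Spearman correlation of aldh1a2 with rdh10 was -0.24, which in counts this sparse is no finding. It was -0.34 without cell 40. With genes detected per cell regressed out it was -0.49. With all values under 20 reads set to 0, a setting added after the data were seen, it was 0.0018. The part of low counts in the negative values was not tested.

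A second row of the table carries the symbol RDH10 (ENSDARG00000058730), and it was present where aldh1a2 was high. Zebrafish have 2 copies of this gene, rdh10a and rdh10b, and the name table does not say which row is which. The second row had 47.3 CPM in cell 15, 198.4 CPM in cell 25 and 210.0 CPM in cell 40, so all 3 cells with high aldh1a2 had at least 207 reads of it. Elsewhere it was detected in cell 22 with 255.3 CPM and in cell 18 with 33.6 CPM, and no other cell had more than 1 read. It was thus detected in 3 of 3 kept cells with aldh1a2 at 50 CPM (2 of 2 without cell 40), against 2 of the other 22. As a background, 23.1% of 7348 genes were detected in a share of these cells at least 50 percentage points higher than in the others. In cell 25 the second row was the only RDH10 row with a read. Cells 2, 14, 26 and 31, all high for rdh10, had no read of it. Reads that both copies could give are divided by estimate, so levels in cells with both rows are uncertain.

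SDR16C5 enzymes also oxidise retinol, and 1 of their 2 rows was also high in cells 15 and 25. SDR16C5 (ENSDARG00000016233) had 77.6 CPM in cell 15, 527.4 CPM in cell 25 and 30.2 CPM in cell 40. Besides these it reached 50 CPM in cell 5, with 329.3 CPM. The other row (ENSDARG00000017794) was at 651.1 CPM in cell 28 and 92.6 CPM in cell 24 and reached 50 CPM in no other cell. Counted over the 4 rows of the first step, cells 15 and 25 each had at least 1 at 50 CPM, but in neither was it rdh10.

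To ask which genes accompany each step, kept cells with a gene at 50 CPM or more were set beside the other kept cells. A gene was said to accompany it if the share of cells at 50 CPM was at least 50 percentage points higher in the first. Of 2970 genes compared, 15.2% were higher with aldh1a2 (450 genes) and 0.202% were lower (6 genes; 58 of 2618 without cell 40). With rdh10, 1.65% were higher (49 genes) and 0.0% lower. Cells 15, 25 and 40 had 4119, 2813 and 10792 genes detected, against a median of 2362 in the other 22. Without cell 40 it was 7.87% higher with aldh1a2 (206 of 2618 genes), of which 191 were among the 450, and 1.18% with rdh10 (31 of 2617), all among the 49. The 10 kept cells with rdh10 had a median of 2593 genes, against 2285 in the other 15. The part of gene number in these counts was not tested.

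Of 75 other genes on the retinoid lists 10 could be compared, and 2 were higher with aldh1a2, the second RDH10 row and SDR16C5 (ENSDARG00000016233). Each entered by reaching 50 CPM in 3 kept cells, 2 of them with high aldh1a2. Read against the background of 15.2%, 2 of 10 is near the share of all genes, and without cell 40 SDR16C5 passed while the second RDH10 row, at 50 CPM in 2 kept cells, was not compared. The median difference was 27.3 percentage points, against 19.7 over all genes compared. Beside rdh10 10 genes were compared as well, with aldh1a2 in the place of rdh10. None was higher, and the median difference was 13.3 points, against 6.67 over all genes.

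Genes that act on retinaldehyde and retinoic acid were read in the same cells. DHRS3 (ENSDARG00000044982), the reducing enzyme, reached 50 CPM in 10 cells, of which 6 had neither aldh1a2 nor rdh10 at that level, as did 27 of all 40 cells. Among kept cells it did so in 4 of 10 with high rdh10, against 3 of the other 15. Its highest levels were 2638 CPM in cell 32, 1871 CPM in cell 35 and 1752 CPM in cell 36. It was at 0.686 CPM in cell 15, at 0.279 CPM in cell 25 and at 115.3 CPM in cell 40. CYP26B1, an enzyme that breaks down retinoic acid, reached 50 CPM in cell 19 with 2077 CPM, in cell 30 with 803.3, in cell 32 with 175.1 and in cell 40 with 120.8 CPM. Of these 4 cells, cell 40 had both aldh1a2 and rdh10 at 50 CPM and the other 3 had neither, as did 27 of all 40 cells. CYP26A1 had no read in any cell, and CYP26C1 reached 7.14 CPM at most.

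Genes for retinoic acid binding proteins were read in the same way. CRABP1 (ENSDARG00000045926) reached 50 CPM in cell 15 alone, at 169.6 CPM. CRABP2 (ENSDARG00000030449) did so in 9 cells, of which 5 had neither aldh1a2 nor rdh10 high, as did 27 of all 40 cells. Another 3 had rdh10 high and aldh1a2 low (cells 2, 9 and 10), as did 10 of all 40. The highest level of CRABP2 was 1508 CPM in cell 36. In cells 15 and 25 it was at 1.15 and 2.36 CPM. The other enzymes of the second step, ALDH1A3 and ALDH8A1, had no read in 40 cells, so aldh1a2 was the only gene of that list with a read.

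Receptor genes were detected in few cells. Of 12 receptor rows 10 were detected in at least 1 cell, and 4 in at least 10% of kept cells. RARG (ENSDARG00000034117) was at 1630 CPM in cell 11, the cell with macrophage markers, and at 27.4 CPM in cell 15, 0 CPM in cell 25 and 76.2 CPM in cell 40. RXRA (ENSDARG00000057737) reached 187.9 CPM in cell 19 and 175.8 CPM in cell 9. PPARD (ENSDARG00000009473), a receptor that can also bind retinoic acid, was at 1513 CPM in cell 11 and 192.0 CPM in cell 15. At these depths a receptor gene without reads in a cell cannot be called absent from it.

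Among genes known to respond to retinoic acid or to take part in its signalling, 16 of 28 were detected in some cell. TGM2 (ENSDARG00000074094), a transglutaminase gene, was highest in cell 19, at 5404 CPM, where CYP26B1 was also highest. It was at 59.9 CPM in cell 15, 4.46 CPM in cell 25 and 543.6 CPM in cell 40. MEIS1, a homeobox gene, reached 50 CPM in 9 cells, among them cell 15 with 205.6 CPM, 4 with rdh10 high and aldh1a2 low and 3 with neither high. Among kept cells it did so in 4 of 10 with high rdh10, against 4 of the other 15. NR2F1 (ENSDARG00000052695), an orphan nuclear receptor gene, reached it in cell 25 alone, at 274.3 CPM. On the uptake and storage list 4 of 13 rows were detected, and BCO2 (ENSDARG00000055722), a carotenoid cleaving enzyme gene, was the only one at 50 CPM, in cells 35 and 10 with 347.9 and 207.0 CPM. STRA6, which encodes a retinol uptake receptor, was below 5 reads in all 40 cells.

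**Figure D3:**
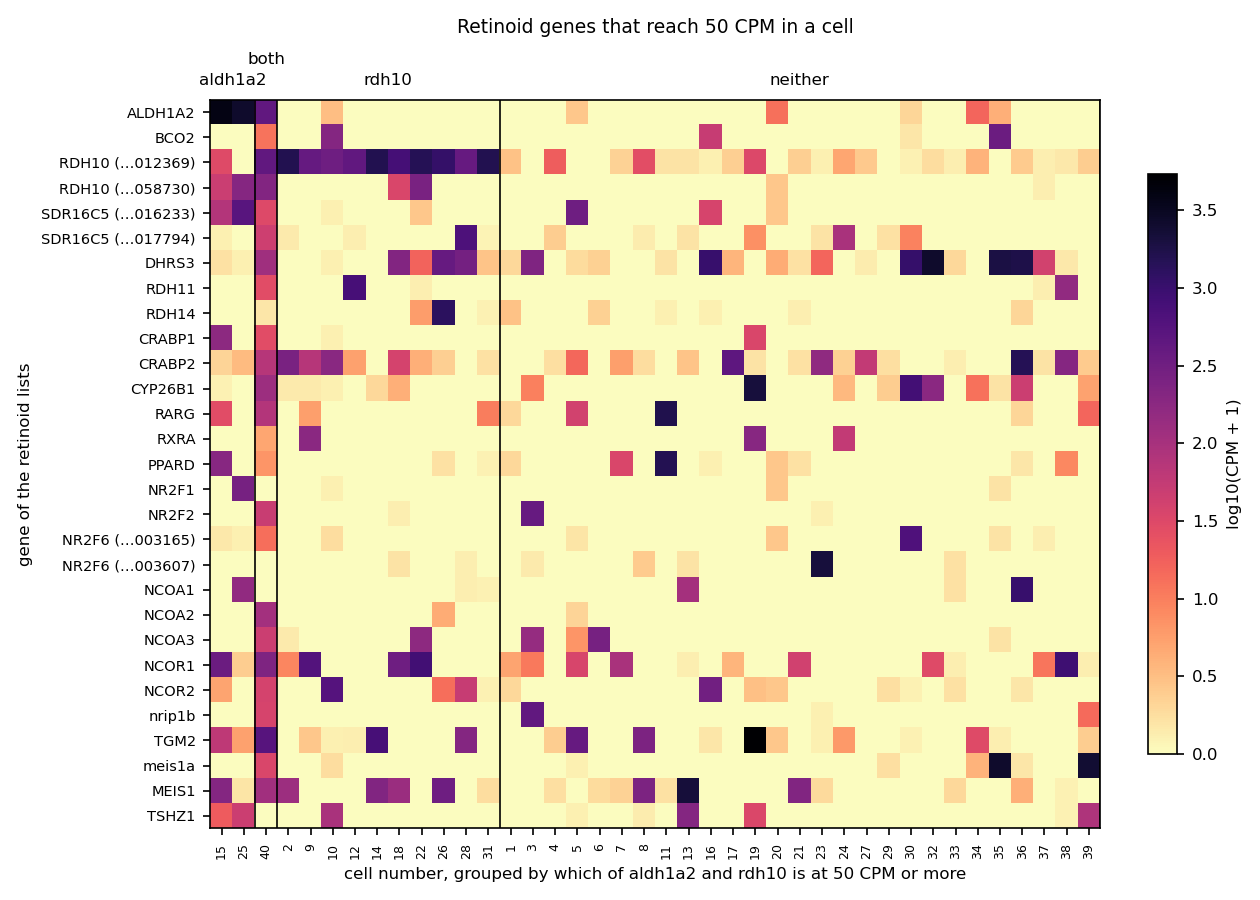
Level of each retinoid list gene that reaches 50 CPM in a cell (rows), as log10(CPM + 1), in all 40 cells (columns), grouped from left to right by aldh1a2 alone, both, rdh10 alone and neither at 50 CPM or more. DHRS3 is at 50 CPM or more in 6 of the 27 cells of the right block, with 2638 CPM in cell 32, and in 3 of the 10 cells with rdh10 alone. The second RDH10 row is dark in cells 25, 40 and 22.

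Summed over their list, epicardial markers took a larger share of reads in cells 15 and 25 than in any kept cell with low aldh1a2. This did not hold for cell 40. Keratins were the highest genes of the list in cells 15 and 25, so they weigh most in the sum. In cell 25 krt5, krt15 and krt8 had 19554, 12570 and 12483 CPM, and in cell 15 krt8 had 9183 CPM. The epicardial list took 7.07% of reads in cell 25, 2.60% in cell 15 and 1.62% in cell 40, against 1.099% as the median of the other 22 kept cells (0.192 to 2.24%). Of its 19 genes compared 8 were higher with aldh1a2 and none lower, beside the background of 15.2%. Their median difference was 45.5 percentage points, against 19.7 over all genes. podxl entered only through the 3 cells with high aldh1a2 and SEMA3D through 2 of them and 1 other. The list was also chosen with earlier results of these data known. These counts are therefore a description, and their place beside the background is no test. Without cell 40 those 2 genes were not compared, 3 of 17 were higher, beside 7.87%, and the median difference was 36.4 points, against 0.0. Those 3 were krt4 and krt15, keratins, and lgals2a, a galectin. krt4 was at 5715 CPM in cell 15, 11535 CPM in cell 25 and 1130 CPM in cell 40, and at 50 CPM in 9 of the other 22. The other 5 were podxl, BNC2, SEMA3D, GATA5 and HAND2. CLU, on the same list, went the other way in cells 15 and 25, at 0.457 and 0.837 CPM, and had 2301 CPM in cell 40. It was at 50 CPM in 11 of the other 22, so without cell 40 CLU was lower by the rule of 50 percentage points.

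podxl (podocalyxin, a surface sialomucin) had 235.6, 2465 and 767.6 CPM in cells 15, 25 and 40, and at most 3.72 CPM in the other 22. jam2b, a junctional adhesion gene, had 664.2, 1299 and 21.9 CPM in these cells and reached 50 CPM in no other kept cell. Cells 15 and 25 differed in other genes. krt5 was at 19554 CPM in cell 25 and 3.66 CPM in cell 15, while BNC2, SEMA3D and tmem88b were at 725.3, 1525 and 576.7 CPM in cell 15 and at most 0.837 CPM in cell 25.

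TCF21 was not highest where aldh1a2 was. It had 1061 CPM in cell 15, 44.9 CPM in cell 25 and 555.9 CPM in cell 40, and it reached 50 CPM in 2 of the 3 cells, against 20 of the other 22. TBX18, an epicardial transcription factor gene, was at 99.2, 209.0 and 378.9 CPM in these cells and at 50 CPM in 12 of the other 22. The Wilms tumor genes WT1 and wt1b, markers of the embryonic epicardium, were at 2.29 and 0.457 CPM in cell 15, 0 CPM in cell 25 and 12.8 and 10.7 CPM in cell 40.

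Endocardial cells can also carry aldh1a2, so endothelial markers were read in the same cells. Of the 20 symbols listed 16 were found in the name table, which left kdrl, pecam1, egfl7 and etv2 unread. Of the list of 15 rows CDH5, KDR, TIE1, TEK, VWF and plvapb had no read in any of the 40 cells, and ERG and SOX18 were below 5 reads. FLI1, an endothelial transcription factor gene, and aplnrb, an apelin receptor gene, were at 0 in cells 15, 25 and 40. FLI1 was at 1619, 166.04 and 395.0 CPM in cells 26, 31 and 35, and aplnrb at 2261 CPM in cell 8. plvapa was detected in 25 cells, at 39.3 CPM or less. flt1 was detected in cell 40 alone, at 7.20 CPM, and aplnra in cells 32 and 40, at 50.1 and 4.11 CPM. The list took 0.0217 to 0.116% of reads in cells 15, 25 and 40, and 9.05e-05 to 0.2696% in the other 22 (median 0.0137%). Most of it in cells 15, 25 and 40 was klf2a, a transcription factor gene, at 1161, 173.1 and 756.2 CPM. klf2a was the 1 gene of 3 compared that was higher with aldh1a2, beside 15.2% of all genes. The median difference of the 3 was -13.6 percentage points. NFATC1, an endocardial transcription factor gene, was at 0, 42.7 and 4.04 CPM in cells 15, 25 and 40. Fibroblast markers took 1.18 to 3.48% in the 3 cells (median 1.72%), and 0.00374 to 4.66% in the other 22 (median 2.13%). Of 13 fibroblast genes compared, col6a1 was higher with aldh1a2 and mfap5 lower, beside 15.2% and 0.202% of all genes, and without cell 40 none was higher.

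The cells with high rdh10 did not stand out by the epicardial list in share of reads or in genes at 50 CPM. They did so in the number of its symbols detected. At least 50% of the 26 symbols were detected in 7 of the 10 kept cells (10 to 24 symbols), against 4 of the other 15 (6 to 19). The 10 cells also had more genes detected, with a median of 2593 against 2285, and the part of this was not tested. The median share of reads of the list was 0.990% in the 10 kept cells, against 1.27% in the other 15. Of 19 genes compared 1 was higher, beside the background of 1.65%, and the median difference was 0.0 percentage points, against 6.67 over all genes. That gene was ANXA1 (annexin A1), at 50 CPM in 10 of 10 kept cells with rdh10, against 7 of 15. The keratin gene krt18a.1 was at 50 CPM in 8 of 10, against 5 of 15, which is under the 50 points required. TCF21 was at 50 CPM in 10 of 10, against 12 of 15, with a median of 232.8 CPM, against 450.2 CPM. TBX18 was at 50 CPM in 4 of 10, against 11 of 15. No gene of the fibroblast, endothelial, cardiomyocyte or mural lists passed, although all of these lists but the mural one had a higher median share of reads beside rdh10. Fibroblast markers took 0.879 to 4.16% of reads in the 10 cells (median 2.47%), and 0.00374 to 4.66% in the other 15 (median 1.72%). Cardiomyocyte markers took 0.000136 to 1.55% of reads in the 10 cells (median 0.0623%), and 0 to 0.126% in the other 15 (median 0.00205%). Endothelial markers took 0.00392 to 0.2696% (median 0.114%), and 9.05e-05 to 0.263% (median 0.00797%). NFATC1 was at 50 CPM in 4 of the 10 and 1 of the 15, and FLI1 in 2 of the 10 and 1 of the 15. klf2a was so in 5 of the 10 and 7 of the 15, which are near equal shares. aplnrb was so in 0 of the 10 and 1 of the 15, and no other endothelial row reached 50 CPM in a kept cell. The part of such cell types or their RNA in the rdh10 values was not tested.

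**Figure D4:**
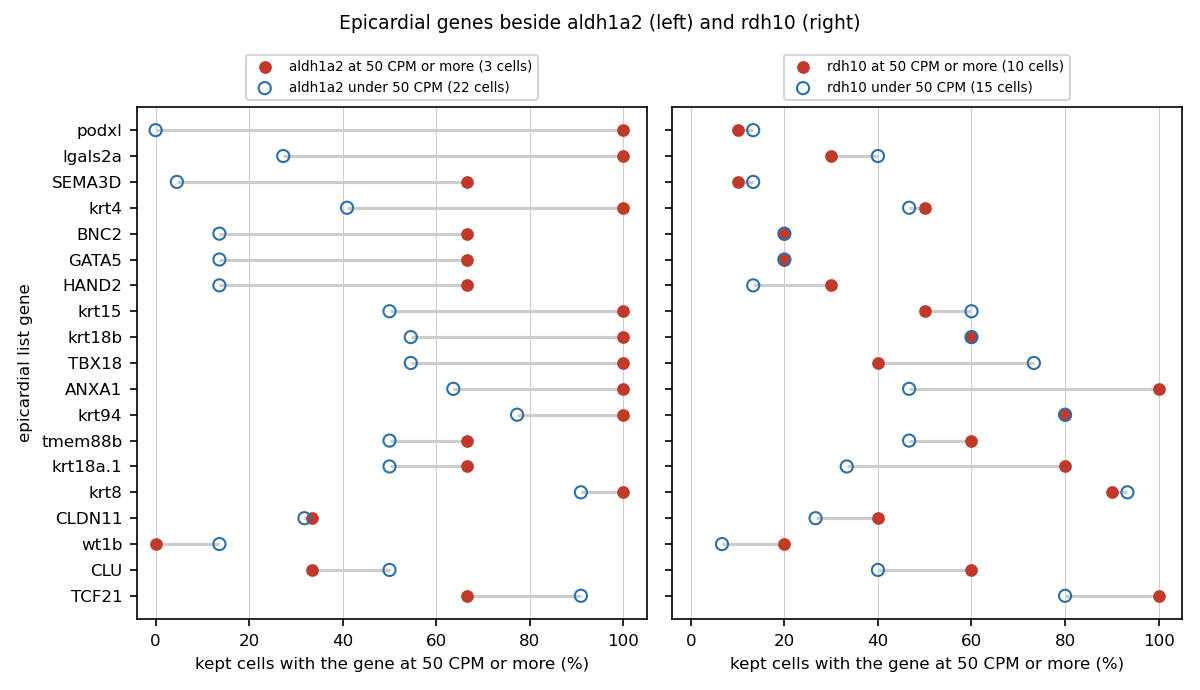
Percent of kept cells in which each of 19 epicardial list genes is at 50 CPM or more, for cells with aldh1a2 (left) or rdh10 (right) at 50 CPM or more (filled red) and for the other kept cells (open blue). podxl reaches 100% against 0% beside aldh1a2, and ANXA1 10 of 10 cells against 7 of 15 beside rdh10.

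The 10 genes with a symbol most like rdh10, by Spearman correlation of CPM over 25 kept cells among 4686 genes, were cycsb, PHLDB2, lrrc15, sc:d217, DLC1, CCDC124, dab2ipb, pkd1a, snphb and prrg1. Their correlations ran from 0.58 to 0.68, as a description of these cells. cycsb, a cytochrome c gene, was at 50 CPM in 8 of 10 kept cells with rdh10, against 2 of 15. DLC1 was at that level in 9 of 10, against 4 of 15. lrrc15, a leucine-rich repeat membrane protein gene, was so in 5 of 10, against 0 of 15. Only kept cells with high rdh10 detected it, so it was ranked only through them. Of the 10 genes 9 were again among the 10 without cell 40, 4 were with values under 20 reads set to 0, and 2 were over all 40 cells.

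**Figure D5:**
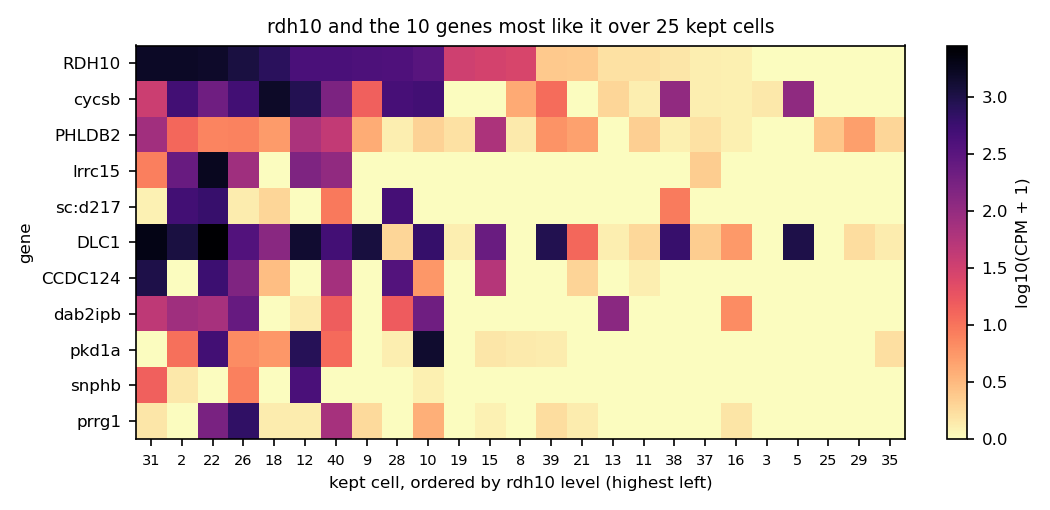
Level of rdh10 and of the 10 genes most like it (rows), as log10(CPM + 1), in 25 kept cells ordered by rdh10 from the highest on the left (columns). cycsb and DLC1 are at 50 CPM or more in 8 and 9 of the 10 cells with high rdh10, and lrrc15 in 5.

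The same ranking for aldh1a2 gave SLC29A1, ftr82, NME7, EMC10, inavab, washc2c, COL12A1, krt5, actr3 and EXOSC10, with correlations of 0.91 to 1.00. These values rest on cells with few reads. Among kept cells all of these genes but krt5 had reads only in cells whose number is a multiple of 5. Many of those values were small: ftr82 had 0.279, 0.272 and 0.644 CPM in cells 5, 10 and 35. Reads in small numbers followed the same step above, and their part in the correlations was not tested. SLC29A1, a nucleoside transporter gene, had 969.2 CPM in cell 15 and 14.5 and 10.7 CPM in cells 25 and 40. COL12A1, a collagen gene, was highest in cell 5, at 507.2 CPM, where aldh1a2 had 6 reads. With values under 20 reads set to 0, 2 of the 10 stayed in the list. Without cell 40, 4 did so, and the rest were no longer ranked, since fewer than 3 kept cells then detected them. ftr82, a gene of the finTRIM family, was the 1 gene of the 10 at 50 CPM in all 3 cells with high aldh1a2, and it was so in 0 of the other 22.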

How the data were processed

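The submitters' processing notes list Bowtie2, RSEM 1.2.12 and Zv9 without saying how each was used, and no source used here gives settings. The authors deposited unscaled expected counts per gene and cell. RSEM divides reads of similar copies by estimate. From these, CPM was computed here per cell over all genes. Levels are compared between cells, not between genes, since no gene lengths of this build were used. Wilson intervals and limits for 0 cells (3 cells of the total) cover the counting of cells only. Symbols (21939 of 33737 genes) came from the supplied name table. List symbols were matched exactly, ignoring case, then without the copy letter. This found 79 of 91 retinoid, 26 of 35 epicardial and 16 of 20 endothelial symbols. The likeness ranking used genes that 3 or more kept cells detected and whose mean there was 10 CPM or more; accompaniment took genes at 50 CPM in at least 3 kept cells. Genes named are list members, the 10 most like each gene and, in the closing observations, genes chosen after their values were seen. Members, lists and levels were chosen with earlier results of these data known. No doublet caller was run. The accompaniment and likeness steps were tried on simulated counts, with cells split as for rdh10 (10 against 15 kept cells). The split for aldh1a2 (3 against 22), genes absent from most cells and reads that follow the cell numbers were not simulated. Simulated likeness was taken to the high or low group, not to the rdh10 level. The simulated outcomes are not used for any result above. Tools were Python 3.11.15, pandas 2.3.3, scipy 1.17.1 and matplotlib 3.10.9. Sequences are not shown here.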

Additional observations from a re-analysis of the deposited data

How the results depend on the processing

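Cells with aldh1a2 made up 7.5% at 20 reads and 7.5% at 50 CPM, beside 8 of 40 cells at 5 reads, and cells with both genes 2.5% at 50 CPM, beside 7.5%. Cells with rdh10 made up 82.5% with any read, beside 37.5%. The correlation of the 2 genes, -0.24, was -0.49 with genes detected per cell regressed out and 0.0018 with values under 20 reads set to 0. Genes higher with aldh1a2, 450, numbered 799 at 20 CPM, 1696 at 5 reads, 206 without cell 40 and 203 without cells 11, 18 and 40, the last added after the data were seen. Genes lower with aldh1a2, 6, numbered 12 at 20 CPM, 0 over all 40 cells, 58 without cell 40 and 71 without the 3 cells. Genes higher with rdh10, 49, numbered 31 without cell 40, all of them among the 49; those lower, 0, numbered 1 at 20 CPM, 2 at 5 reads and 4 without the 3 cells. With reads thinned to 2000000 per cell, which left out 9 shallower cells, aldh1a2 was detected in 12.9% and rdh10 in 45.2% of 31 cells. Mean levels moved by less than the SD over cells under each scaling and choice of cells tried. The SDs, 922.9 CPM for aldh1a2 and 531.0 CPM for rdh10, exceed the means of 278.5 and 341.8 CPM, so this could hardly fail. Over all 40 cells the means were 174.8 and 254.1 CPM. No paired analysis was possible because the series has 1 group. The number of cells with aldh1a2 high, 3, limits every statement about its partners.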

Other observations

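Some genes outside the lists accompanied the 2 steps; they were chosen after their values were seen. Besides podxl, 6 genes were at 50 CPM in 3 of 3 kept cells with high aldh1a2 and in 0 of the other 22: TMEM98, PFKFB4, ftr82, FBXO9, SCYL3 and RNF5. They were compared only because those 3 cells reached that level. TMEM98, a membrane protein gene, had 1136 CPM in cell 15, 198.96 CPM in cell 25 and 77.6 CPM in cell 40, and at most 0.966 CPM in the other 22. PFKFB4, which encodes an enzyme that regulates glycolysis, had 946.7, 208.7 and 113.6 CPM in these cells and at most 31.8 CPM in the others. SFRP1, which encodes a secreted Wnt antagonist, had 753.8, 1437 and 68.5 CPM, and was at 50 CPM in 1 of the other 22.

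Beside rdh10 the widest gap was that of plin3, a lipid droplet coat gene, at 50 CPM in 9 of 10 kept cells with rdh10, against 3 of 15 (8 of 9 without cell 40). SLC3A2, an amino acid transporter subunit gene, was at that level in 8 of 10, against 2 of 15. FHL2, DHRS1 and col18a1a were each so in 7 of 10, against 1 of 15. DHRS1 encodes a short-chain dehydrogenase, the enzyme family that also holds RDH10. loxl2a, a lysyl oxidase family gene of matrix crosslinking, was at 50 CPM in 6 of 10, against 0 of 15, with a median of 138.6 CPM, against 0 CPM. It was compared only because cells with high rdh10 reached that level. Of all genes compared beside rdh10, 1.65% were higher by the rule.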
